A study of Mus musculus with 6 samples.

Results

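The mitochondrial ribosomal protein genes were followed in the brains of adult mice with and without Bahd1. They were taken as the rows of the counts table whose symbol begins with Mrpl or Mrps and a digit, with 5 rows named as pseudogenes left out, and came to 78 of the 53801 genes of the table. The samples were single brain hemispheres of 3 Bahd1-WT (Bahd1+/+) and 3 Bahd1-KO (Bahd1-/-) mice on the C57BL/6 background, all about 70 weeks old, and the study describes them as males. The knockout mice came from crosses of heterozygous Bahd1-Het1 animals, the labels name no treatment other than the knockout, and, since the study describes many deaths at birth among mutants, the adults studied are survivors. One hemisphere of each mouse was one sample, so that all its cell types were measured together. Polyadenylated RNA was sequenced from stranded libraries and the authors deposited the raw count of reads on the exons of each gene.

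Mitochondria have their own ribosome, which makes the few respiratory chain subunits encoded by mitochondrial DNA. Its RNA is transcribed in the mitochondrion, whereas all of its proteins are encoded in the nucleus, made in the cytosol and imported. Part of these proteins have a counterpart in the bacterial ribosome, and the others were gained by mitochondria. Neurons depend heavily on respiration, and inherited defects of mitochondrial ribosomal proteins cause respiratory chain disease.

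By the place of their products in the mammalian mitoribosome, 51 of the 78 genes belonged to the large subunit and 26 to the small subunit. Of the large subunit genes 30 had a bacterial counterpart and 21 did not, and of the small subunit genes 16 had one and 10 did not. Symbols do not always tell the place: Mrps18a and Mrps30 were counted with the large subunit, where their proteins sit, and Mrps36 was kept apart because its protein is now placed in the oxoglutarate dehydrogenase complex. The genes lay on 17 chromosomes, with 11 on chromosome 11 and 8 on chromosome 17. The 5 pseudogene rows held between 0 and 15 counts over the 6 libraries.

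The property that went furthest with the fold changes described below was the base composition of the transcripts. It is shown here by a stretch of the coding sequence, bases 121 to 240 from the start codon, in the principal transcript of GENCODE M21 on GRCm38, with every G and C in capitals. The first 3 genes were among the 4 with the highest log2 fold change in Bahd1-KO against Bahd1-WT, and the last 2 had the lowest.
Mrpl14: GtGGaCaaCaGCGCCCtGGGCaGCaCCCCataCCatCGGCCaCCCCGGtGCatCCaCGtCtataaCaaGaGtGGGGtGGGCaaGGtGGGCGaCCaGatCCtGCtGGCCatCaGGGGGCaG
Mrpl12: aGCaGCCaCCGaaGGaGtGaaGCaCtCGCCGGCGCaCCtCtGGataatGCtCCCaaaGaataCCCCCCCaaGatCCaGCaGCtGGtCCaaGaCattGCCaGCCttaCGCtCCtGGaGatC
Mrpl38: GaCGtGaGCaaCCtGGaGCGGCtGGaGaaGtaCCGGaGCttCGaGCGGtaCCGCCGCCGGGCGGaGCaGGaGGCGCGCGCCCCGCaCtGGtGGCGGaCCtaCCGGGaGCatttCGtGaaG
Mrpl1: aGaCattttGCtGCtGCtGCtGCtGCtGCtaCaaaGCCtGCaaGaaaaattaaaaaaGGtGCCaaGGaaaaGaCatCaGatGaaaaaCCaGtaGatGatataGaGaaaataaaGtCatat
Mrpl50: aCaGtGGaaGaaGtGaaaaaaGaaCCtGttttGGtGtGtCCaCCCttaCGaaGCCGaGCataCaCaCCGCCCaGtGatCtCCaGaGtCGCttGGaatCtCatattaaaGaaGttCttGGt
G and C made up 65.0% of this stretch in Mrpl14, 58.3% in Mrpl12 and 70.0% in Mrpl38. In Mrpl1 and Mrpl50 they made up 36.7% and 45.8%. Not every stretch went this way: it held 72.5% in Mrps30 and 60.8% in Mrps22, whose log2 fold changes were -0.40 and -0.31, and over the 77 genes tested Spearman's rho between the GC content of the stretch and the log2 fold change was 0.52. Over the whole coding sequence the share was 58.2% in Mrpl14, 59.7% in Mrpl12 and 59.8% in Mrpl38, against 41.6% in Mrpl1 and 45.9% in Mrpl50.

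The depth was 64788806 to 92895774 counts in the Bahd1-WT libraries and 42297150 to 93557948 in the Bahd1-KO libraries. Bahd1 was read 1383, 844 and 1099 times in the Bahd1-WT libraries against 0, 14 and 1 times in those of Bahd1-KO, as the labels have it. Bahd1-KO replicate 2 stood apart from the others, and fold changes without it are given below as well. Markers of neurons, astrocytes, oligodendrocytes and microglia were all detected. Of these 21 markers 5 were higher in Bahd1-KO at an adjusted p under 0.1 and 0 lower, against 14.7% and 4.77% of all genes tested. These were Tubb3 (log2 fold change 2.06), Mag (1.66), Tmem119 (1.37), Mbp (1.17) and Aldh1l1 (1.03), each highest in Bahd1-KO replicate 2, while P2ry12 (-0.54), Aqp4 (-0.47) and Syt1 (-0.37) lay on the other side without passing. The summed level of the lists was 6380 to 7356 CPM in Bahd1-WT and 6052 to 7094 CPM in Bahd1-KO for neurons, 2010 to 2241 and 1700 to 1969 CPM for astrocytes, 4887 to 5694 and 5104 to 7898 CPM for oligodendrocytes, and 120 to 163 and 139 to 180 CPM for microglia. Markers of lung and airway, which brain should lack, summed to 108 CPM (counts scaled to the TMM-normalised library size) in Bahd1-WT replicate 1, 26.1 in replicate 2 and 2.30 in replicate 3, and to 0.506 to 1.42 CPM in Bahd1-KO, and all 5 had an adjusted p under 0.1. The part of brain cell and lung markers in the results below was not tested. Without Bahd1-WT replicate 1 the median log2 fold change of the mitochondrial ribosomal protein genes was 0.14 in place of 0.17. Their count higher at an adjusted p under 0.1 was 0 in place of 21, in a fit where 1 of all 23070 genes passed. Replicate 2 still held 26.1 CPM of lung markers there, so that this fit is no test of their part.

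Together the mitochondrial ribosomal protein genes took 0.179% to 0.195% of all counts in the Bahd1-WT libraries. In the Bahd1-KO libraries the share was 0.225% in replicate 1, 0.249% in replicate 2 and 0.186% in replicate 3, so that the groups overlapped. Divided by transcript length, the mean Bahd1-WT level of the genes tested ran from 2.47 to 74.1 CPM per kb, with a median of 12.5 CPM per kb. Mrpl42, a large subunit protein without a bacterial counterpart, had the highest level at 74.1 ± 7.62 CPM per kb (SD, n = 3), above the range of the next gene. Mrps15 (47.7 ± 4.60 CPM per kb), Mrpl20 (44.1 ± 4.72), Mrpl30 (38.8 ± 4.41), Mrpl50 (36.9 ± 4.32), Mrpl13 (34.5 ± 3.20) and Mrpl41 (33.5 ± 2.22) followed, with ranges that overlapped from one to the next. At the other end stood Mrpl14 (2.47 ± 0.238 CPM per kb), Mrps36 (2.73 ± 0.337) and Mrpl23 (2.83 ± 0.575), whose ranges overlapped from one to the next. Mrpl17, near the exit of the peptide tunnel, was at 3.71 CPM per kb, and has the longest transcript of the group at 7300 bases. Mrpl53 had 1 read in Bahd1-KO replicate 2 and none elsewhere, and was not tested. Exons of Gm42688 on the same strand cover 88.0% of its exon length, so that its level is uncertain.

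The first comparison asked whether the loss of Bahd1 goes with other levels of these genes. Of the 77 genes tested, 54 had a log2 fold change above 0 and 23 below 0, from -0.51 for Mrpl50 to 1.94 for Mrpl14, with a median of 0.17. Over all 23975 genes tested 46.6% were above 0 and the median was -0.06. With upper-quartile factors in place of TMM the median of all genes moved to -0.20 and that of the 77 genes to 0.02, and the distance between the median of the group and that of all genes was 0.23 with either scaling. The median was 0.19 over the 50 large subunit genes tested and 0.08 over the 26 small subunit genes, and with upper-quartile factors the latter turned to -0.06. Leaving out Bahd1-KO replicate 2 gave 0.09 and 0.05. In a whole hemisphere, fewer cells of a type and less RNA per cell cannot be told apart.

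None of the 77 genes was called at an adjusted p under 0.05 with at least a 2-fold change in edgeR's quasi-likelihood test, where 2 of all genes tested were called, or 0.00834%. At an unadjusted p under 0.05 there were 27 genes higher and 0 lower, against 19.9% and 12% of all genes. At an adjusted p under 0.1, 21 genes (27.3%) were higher in Bahd1-KO, 13 of the large and 8 of the small subunit, against a background of 14.7% of all genes tested. None of the genes was lower at that level, against a background of 4.77%. The Wald test of DESeq2, the tool of the study, run with a normal prior, called 15 of the genes (19.5%) higher, against 9.61% of all genes, and 4, against 3.06%, without Bahd1-KO replicate 2. In 32 genes (41.6%) all 3 Bahd1-KO libraries lay above all 3 Bahd1-WT libraries, against a background of 20.6%, and in 0 genes below, against 19.3%. The 21 genes at an adjusted p under 0.1 had values from 0.063 to 0.094, and their log2 fold changes started at 0.60. Bahd1-KO replicate 2 was the highest of the 6 libraries in each of these 21 genes. The count of 21 was 0 without Bahd1-WT replicate 1, 2 or 3 or without Bahd1-KO replicate 3, where at most 5 of all genes passed. It was 13 without Bahd1-KO replicate 2, against 8.94% of all genes, and 29 without Bahd1-KO replicate 1, against 23.9%, while the median log2 fold change stayed between 0.06 and 0.26. Without Bahd1-KO replicate 1, 18 genes met the 2-fold call, against 16.8% of all genes, and 8 were lower at an adjusted p under 0.1, against 17.3%.

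**Figure D1:**
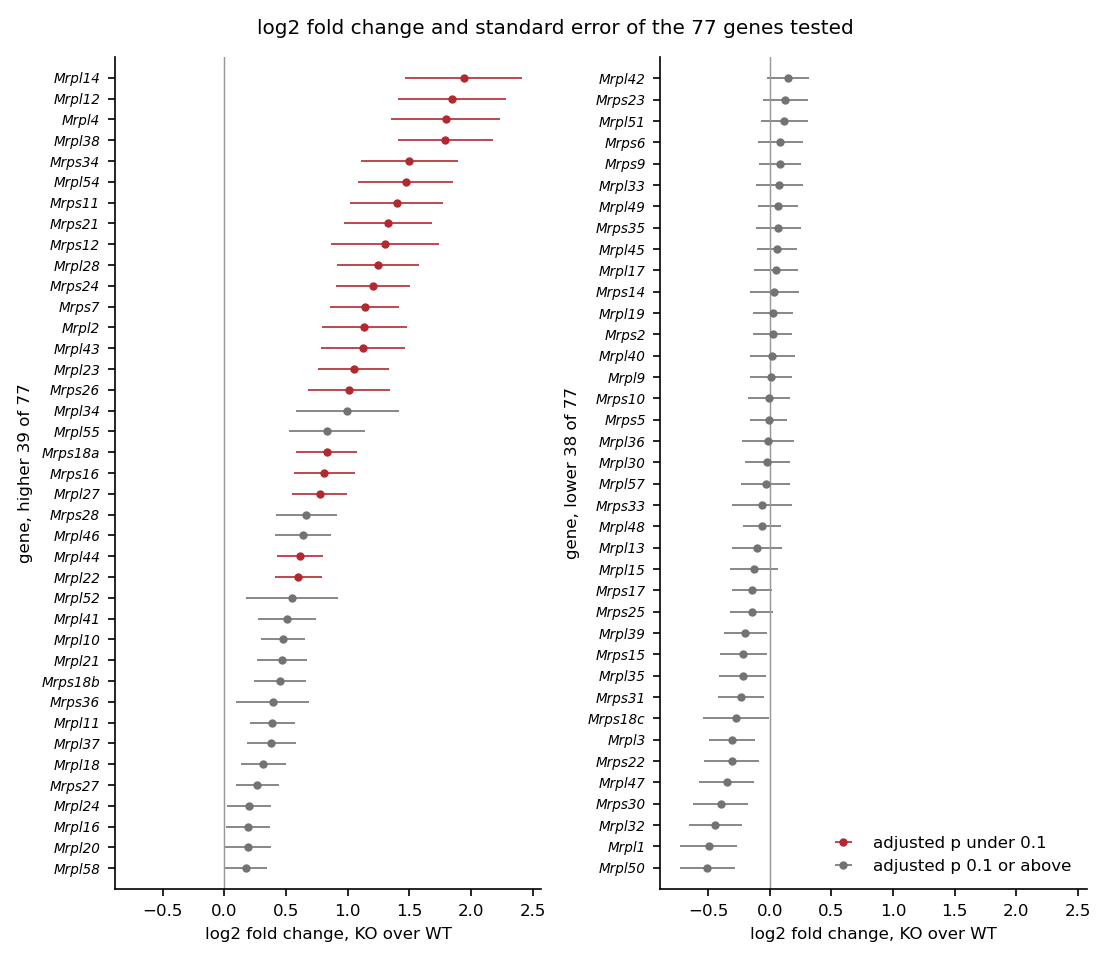
Log2 fold change of Bahd1-KO over Bahd1-WT (x axis) with its standard error (bars) for the 77 genes tested, in 2 columns by rank, red where the adjusted p of edgeR's quasi-likelihood test was under 0.1. The 21 red genes all lie on the higher side, and the genes below 0 reach -0.51.

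The genes with the largest difference came from the large subunit. Mrpl14 (ENSMUSG00000023939, GRCm38 chromosome 17, 45686322 to 45698495), a protein with a bacterial counterpart at the face between the subunits, had 1.42, 1.64 and 1.72 CPM in Bahd1-WT and 3.17, 11.4 and 3.71 CPM in Bahd1-KO. All 3 Bahd1-KO libraries were above all Bahd1-WT libraries, and replicate 2 was far above replicates 1 and 3. The log2 fold change was 1.94 (SE 0.47, n = 3 per genotype, edgeR adjusted p = 0.063), and 1.1 without Bahd1-KO replicate 2.
Mrpl12 (ENSMUSG00000039640, chromosome 11, 120484613 to 120489065) encodes the protein of the ribosomal stalk that contacts translation factors. It had 10.2, 7.0 and 8.81 CPM in Bahd1-WT and 17.1, 56.5 and 20.2 CPM in Bahd1-KO, with no overlap, a log2 fold change of 1.85 (SE 0.44, edgeR adjusted p = 0.063), and 1.1 without Bahd1-KO replicate 2.
Mrpl38 (ENSMUSG00000020775, chromosome 11, 116131817 to 116138868), a protein of the central protuberance that bacteria lack, had 12.3, 7.89 and 8.30 CPM in Bahd1-WT and 19.2, 53.9 and 25.7 CPM in Bahd1-KO. Its log2 fold change was 1.79 (SE 0.38, edgeR adjusted p = 0.063), and 1.24 without Bahd1-KO replicate 2. Mrpl54 was at 2.96 to 4.85 CPM in Bahd1-WT and at 7.29, 18.1 and 7.57 CPM in Bahd1-KO, and Mrpl4, which lines the peptide tunnel and was named after its values were seen, at 4.05 to 7.14 CPM and at 9.26, 32.2 and 14.6 CPM. Their log2 fold changes of 1.47 and 1.80 came to 0.90 and 1.15 without Bahd1-KO replicate 2.

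**Figure D2:**
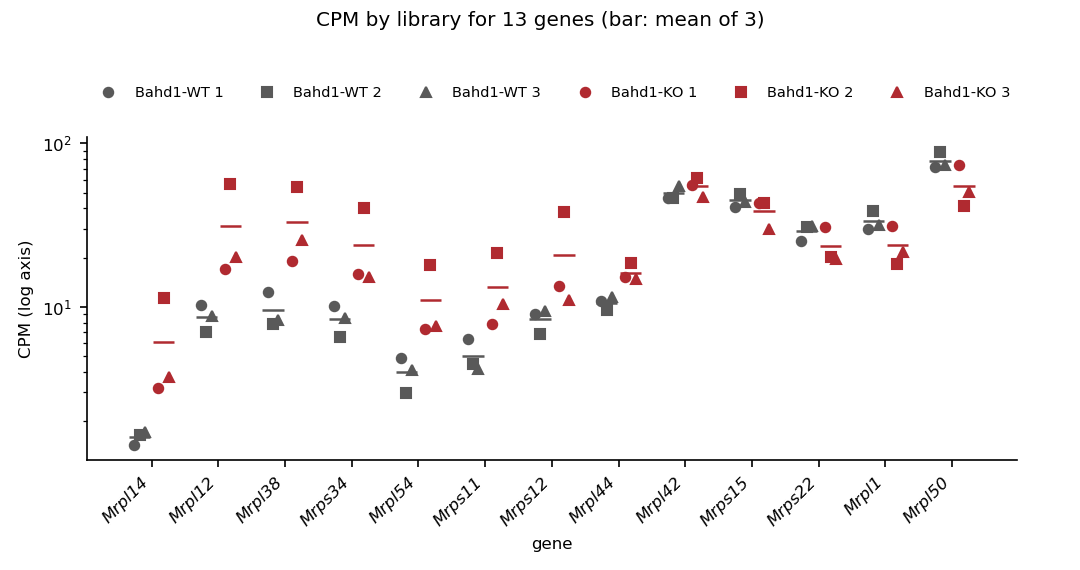
CPM on a log axis for 13 genes, with grey points for the 3 Bahd1-WT libraries, red points for the 3 Bahd1-KO libraries, a shape for each replicate number and a bar at each mean. From Mrpl14 to Mrpl44 the red points lie above the grey ones with Bahd1-KO replicate 2 highest, and from Mrpl42 to Mrpl50 the groups overlap.

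Among small subunit genes the highest fold change was that of Mrps34 (ENSMUSG00000038880, chromosome 17, 24895116 to 24897502), a protein gained by mitochondria. It had 10.1, 6.51 and 8.55 CPM in Bahd1-WT and 15.8, 40.3 and 15.1 CPM in Bahd1-KO, a log2 fold change of 1.5 (SE 0.39, edgeR adjusted p = 0.064), and 0.88 without Bahd1-KO replicate 2. Exons of Nme3 on the same strand cover 37.0% of its exon length and those of Mapk8ip3 on the other strand 63.4%, so that its reads are uncertain. Mrps11 (chromosome 7, 78783119 to 78792989) had 6.38, 4.44 and 4.16 CPM in Bahd1-WT and 7.86, 21.2 and 10.3 CPM in Bahd1-KO, a log2 fold change of 1.4 (SE 0.38, edgeR adjusted p = 0.065), and 0.87 without Bahd1-KO replicate 2. Its first exon overlaps head to head with that of Mrpl46 on the other strand, whose log2 fold change was 0.64, and 0.37 without Bahd1-KO replicate 2. Mrps12, the protein of the decoding centre, had 8.99, 6.83 and 9.39 CPM in Bahd1-WT and 13.4, 37.8 and 11 CPM in Bahd1-KO. Its log2 fold change of 1.30 (edgeR adjusted p = 0.094) came to 0.53 without Bahd1-KO replicate 2, with an adjusted p of 0.15. Mrps21 had 6.27 to 9.63 CPM in Bahd1-WT and 14.4, 33.9 and 15.2 CPM in Bahd1-KO (log2 fold change 1.33), and Mrps26 had 13 to 15.0 CPM and 19.0, 44.7 and 19.2 CPM (1.01), both with an edgeR adjusted p under 0.1. Without Bahd1-KO replicate 2 Mrps21 came to 0.81 and Mrps26 to 0.47, where Mrps26 no longer passed (edgeR adjusted p = 0.11).

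A further 8 genes were higher at an adjusted p under 0.1, and they are named here after their values were seen. In the large subunit, Mrpl28 had 8.91 to 13.2 CPM in Bahd1-WT and 19.2, 42.1 and 19.3 CPM in Bahd1-KO (log2 fold change 1.25), Mrpl2 had 5.59 to 7.69 CPM and 9.91, 24.3 and 11.7 CPM (1.14), and Mrpl43 had 11.7 to 12.6 CPM and 17.5, 43.3 and 18.6 CPM (1.13). The exons of Twnk, the mitochondrial DNA helicase, on the other strand cover 33.4% of Mrpl43. Mrpl27 (9.57 to 13.3 CPM against 17.4, 24.3 and 16.8 CPM) and Mrpl22 (9.09 to 9.51 CPM against 13.6, 16.8 and 12.1 CPM) had smaller log2 fold changes, of 0.77 and 0.60. In the small subunit, Mrps24 had 4.07 to 4.69 CPM in Bahd1-WT and 7.93, 14.7 and 7.01 CPM in Bahd1-KO (1.21), Mrps7 had 11.7 to 16 CPM and 23.1, 44.3 and 24.3 CPM (1.14), and Mrps16 had 7.69 to 8.87 CPM and 12.6, 19.9 and 11.1 CPM (0.81). In all 8 the genotypes did not overlap. Without Bahd1-KO replicate 2 the log2 fold changes were 0.76 for Mrpl28, 0.63 for Mrpl2, 0.57 for Mrpl43, 0.58 for Mrpl27, 0.46 for Mrpl22, 0.80 for Mrps24, 0.77 for Mrps7 and 0.51 for Mrps16, and Mrpl2, Mrpl22 and Mrps16 no longer had an adjusted p under 0.1. Exons of Urgcp on the same strand cover 15.4% of Mrps24.

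The other members stood near 0 or between. The 5 genes closest to 0 are also named after their values were seen. Mrps5 had 45.2 to 49.6 CPM in Bahd1-WT and 47.6, 43.5 and 48.3 CPM in Bahd1-KO (log2 fold change -0.01, SE 0.15), and Mrps10 had 19.5 to 20.5 CPM and 20.5, 21.8 and 17.5 CPM. Mrpl9, Mrpl36 and Mrpl30 had log2 fold changes of 0.01, -0.01 and -0.02.

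At the other end no gene passed either threshold. Mrpl50 (ENSMUSG00000044018, chromosome 4, 49512596 to 49521093), a large subunit protein without a bacterial counterpart, had 71.8, 88.5 and 73.6 CPM in Bahd1-WT and 73.3, 41.1 and 50.4 CPM in Bahd1-KO, a log2 fold change of -0.51 (SE 0.23, edgeR adjusted p = 0.16). Bahd1-KO replicates 2 and 3 were below all Bahd1-WT libraries and replicate 1 was within their range. Mrpl1, the protein of the mobile stalk at the exit side of the ribosome, showed the same order with 30.1, 38.6 and 31.7 CPM against 31.4, 18.2 and 21.6 CPM (log2 fold change -0.50, edgeR adjusted p = 0.17). Mrpl32 (-0.44), Mrps30 (-0.40), Mrps22 (-0.31), Mrps18c (-0.28), Mrps31 (-0.23) and Mrps15 (-0.21) had lower values as well, and none of them passed. When Bahd1-KO replicate 2 was left out, Mrpl50 and Mrpl1 both came to -0.34, Mrpl32 to -0.33, Mrps30 to -0.29, Mrps22 to -0.22, Mrps18c to -0.11, Mrps31 to -0.12 and Mrps15 to -0.31. With the GC and length offset described below they came to -0.09, -0.01, 0.01, -0.04, -0.15, -0.32, 0.07 and -0.84 in the same order. Mrpl32 and Mrps31 thus changed sign. In Mrps22, a gene mutated in human mitochondrial disease, Bahd1-WT was at 25.1, 30.6 and 31.4 CPM and Bahd1-KO at 30.8, 20.1 and 19.5 CPM.

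The 3 genes related to the bacterial protein S18 differed from each other. Mrps18c, which takes the place of S18 in the small subunit, had 14.0 to 16.6 CPM in Bahd1-WT and 18.7, 9.62 and 10.6 CPM in Bahd1-KO, although exons of Gm43511 cover 23.2% of its exon length. Mrps18b, in the small subunit too, had 7.04 to 7.71 CPM and 8.92, 12.5 and 8.86 CPM, a log2 fold change of 0.45 (edgeR adjusted p = 0.17) with no overlap between genotypes, and 0.27 without Bahd1-KO replicate 2. Mrps18a, in the large subunit, had 17.1 to 23.5 CPM and 30.3, 50.6 and 29.5 CPM, a log2 fold change of 0.83 (edgeR adjusted p = 0.074), and 0.53 without Bahd1-KO replicate 2 (edgeR adjusted p = 0.10). Differences between these 3 fold changes were not tested.

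Other genes of known place were spread over the range. At the base of the stalk, Mrpl11 had 27.8 to 31.7 CPM in Bahd1-WT and 38.9, 46.6 and 32.6 CPM in Bahd1-KO (log2 fold change 0.39, edgeR adjusted p = 0.18, and 0.24 without Bahd1-KO replicate 2). Around the tunnel exit, Mrpl23 was at 1.51 to 2.26 CPM and 3.17, 5.45 and 3.51 CPM (1.05, edgeR adjusted p = 0.065, and 0.77 without Bahd1-KO replicate 2, edgeR adjusted p = 0.10), while Mrpl45, which holds the ribosome to the inner membrane, was at 31.0 to 37.0 CPM and 34.5, 38.1 and 31.6 CPM (0.06, and -0.02 without that library). Mrpl44, which has a fold like that of RNase III, was at 9.49 to 11.4 CPM in Bahd1-WT and at 15.3, 18.4 and 14.8 CPM in Bahd1-KO. Its log2 fold change was 0.61 (SE 0.19, edgeR adjusted p = 0.076), and 0.51 without Bahd1-KO replicate 2 (edgeR adjusted p = 0.11). Among the named genes under 0.1 it was the one whose 3 Bahd1-KO libraries lay closest together relative to their mean. Mrpl58, which frees peptides from stalled ribosomes, had a log2 fold change of 0.17 (SE 0.17), and Mrps27, a protein with pentatricopeptide repeats, one of 0.27 (SE 0.18), and these came to 0.04 and 0.15 without Bahd1-KO replicate 2. The 4 genes with the highest levels per length over the 6 libraries had log2 fold changes of 0.15 for Mrpl42, 0.19 for Mrpl20, -0.21 for Mrps15 and 0.51 for Mrpl41, none of them under an adjusted p of 0.1. Leaving out Bahd1-KO replicate 2 gave 0.04, 0.06, -0.31 and 0.21 in the same order. Mrps36 was at 1.66 to 2.13 CPM in Bahd1-WT and at 1.84, 3.57 and 2.09 CPM in Bahd1-KO, with overlap (log2 fold change 0.39, and 0.04 without Bahd1-KO replicate 2).

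Genes with and without a bacterial counterpart were set side by side, and differences between them were not tested. In the large subunit the median log2 fold change was 0.20 over 30 genes with a counterpart and 0.16 over 20 without, with 8 and 5 genes higher at an adjusted p under 0.1. In the small subunit it was 0.08 over 16 genes and 0.10 over 10 genes, with 6 and 2 genes higher. These 4 medians without Bahd1-KO replicate 2 were 0.14, 0.04, 0.08 and 0.05. With the GC and length offset described below they were 0.07, 0.09, 0.16 and 0.06.

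The 3 Bahd1-KO libraries differed in the middle and the spread of the genes. Relative to the mean of Bahd1-WT, the median of the 77 genes was 0.27 in Bahd1-KO replicate 1, 0.37 in replicate 2 and -0.07 in replicate 3 on the log2 scale, against -0.05, -0.03 and 0.08 in Bahd1-WT replicates 1, 2 and 3. In replicate 1, 56 genes were above all Bahd1-WT libraries and 0 below all of them. In replicate 2 there were 48 above and 19 below, and in replicate 3 there were 32 above and 34 below. The genes reached from -0.92 to 2.84 in replicate 2, from -0.68 to 1.48 in replicate 3 and from -0.08 to 1.04 in replicate 1. The SD over the genes was 0.09 to 0.15 in the Bahd1-WT libraries and 0.30, 0.96 and 0.52 in Bahd1-KO replicates 1, 2 and 3. Without Bahd1-KO replicate 2 the median log2 fold change was 0.06, 47 genes were above 0 and 13 were higher at an adjusted p under 0.1. Of the 21 genes higher with all libraries, 21 were still above 0 and 13 still had an adjusted p under 0.1.

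**Figure D3:**
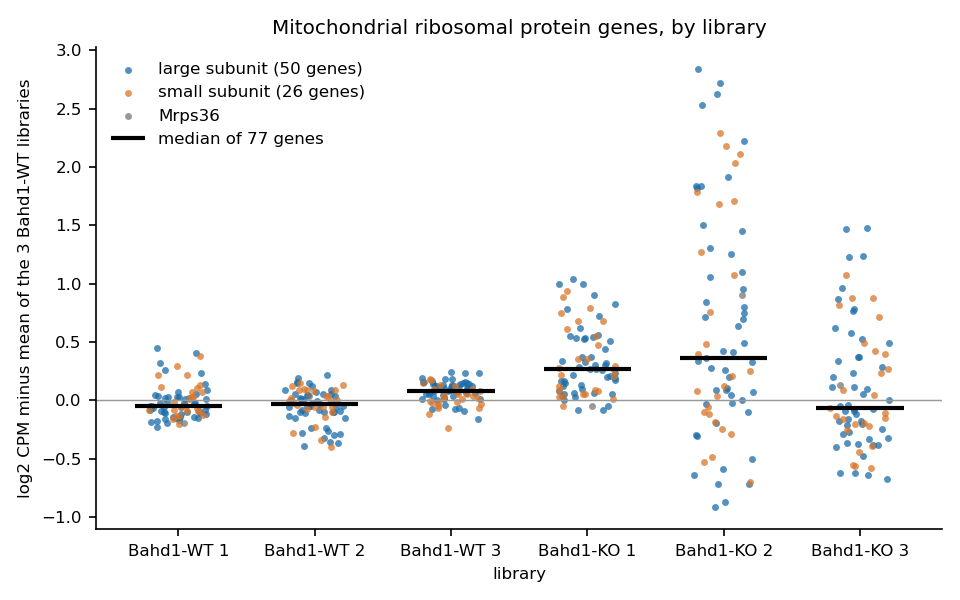
Log2 CPM of each of the 77 genes in each library minus the mean of the 3 Bahd1-WT libraries, in blue for the large and orange for the small subunit, with a bar at the median. Bahd1-KO replicate 2 spans -0.92 to 2.84 around a median of 0.37, and replicate 3 has its median at -0.07.

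The place of a gene in this spread followed the GC content of its transcript. Across the 77 genes Spearman's rho between log2 fold change and GC content was 0.80 (0.75 without Bahd1-KO replicate 2), and -0.49 for transcript length, which was itself related to GC content (-0.61). These are correlations over genes that share 6 libraries, and genes are not independent replicates. Over 23940 genes tested that had an annotation the correlation with GC content was 0.76, so that the mitochondrial ribosomal protein genes shared a trend of the whole table. In the 9 pairs of 1 Bahd1-KO and 1 Bahd1-WT library it ran from 0.58 to 0.81. With the GC content of the coding sequence alone it was 0.74, and with that of the last codon positions 0.59.

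The GC content of the 77 transcripts ran from 39.6% to 60.6%. Below 45% there were 12 genes with a median log2 fold change of -0.18, beside -0.52 for all genes of that band. From 45% to 50% there were 26 genes with a median of 0.06, beside -0.21, and from 50% to 55% there were 22 genes with 0.38, beside 0.26. At 55% and above all 17 genes were above 0, with a median of 1.25 beside 1.06 for all genes of the band. The medians of the 4 bands without Bahd1-KO replicate 2 were -0.10, 0.01, 0.21 and 0.77. The last band held 14 of the 21 genes higher at an adjusted p under 0.1 and 16 of the 32 without overlap. No share over the 4950 genes tested in that band is set beside these counts, so they do not tell this group from other GC-rich genes. In it the 3 Bahd1-KO libraries had medians of 0.75, 1.91 and 0.82 relative to Bahd1-WT, and in the lowest band of 0.05, -0.39 and -0.30. Bahd1-WT libraries differed in the same way on a smaller scale, with 0.14, -0.28 and 0.12 in the highest band and -0.13, 0.06 and 0.03 in the lowest.

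**Figure D4:**
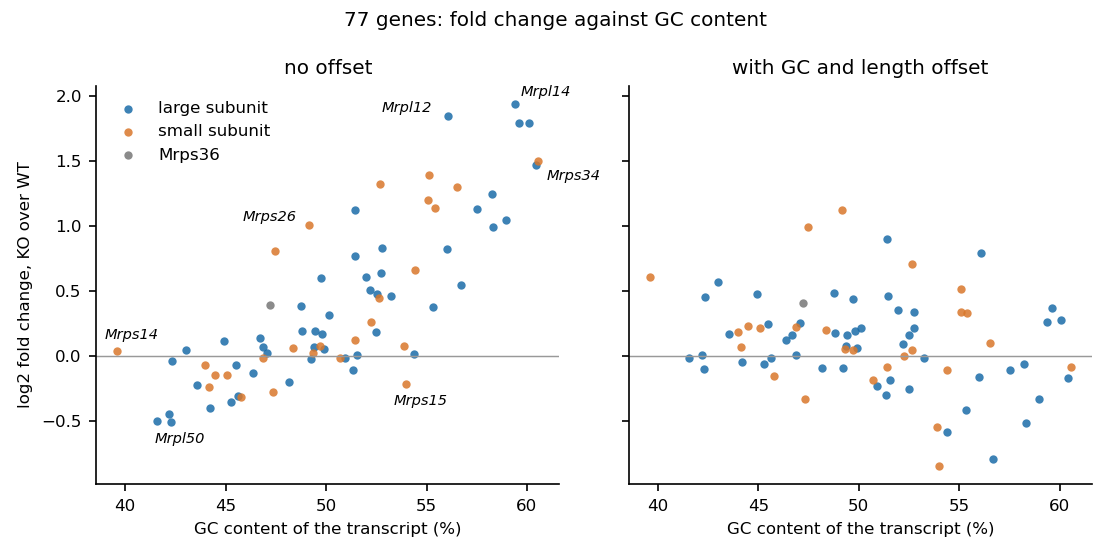
Log2 fold change of the 77 genes against the GC content of their transcripts in percent, without (left) and with (right) the GC and length offset, coloured by subunit. On the left the points climb from -0.51 for Mrpl50 to 1.94 for Mrpl14, with a Spearman correlation of 0.80, and on the right the correlation is -0.23.

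The trend was then taken out with an offset per library, a smooth fit of log2 CPM on GC content and length over expressed genes. Whether the trend came from the libraries or from the brains was not tested. With the offset the correlation with GC content was -0.23, the median log2 fold change 0.09 (all genes -0.04) and 48 of the 77 genes were above 0. Across the 77 genes rho with transcript length was 0.34 with the offset, where it had been -0.49. With the level per kb it was -0.51, where it had been -0.11. Among these genes the values with the offset are thus not free of length. Of the 21 genes higher before, 15 were still above 0. At an adjusted p under 0.1, 4 genes were higher and 3 lower, against 2.88% and 2.18% of all genes. Mrpl12 was one of the 4, at 0.79 (edgeR adjusted p with offset 0.084). The others, named after their values were seen, were Mrps16 (1.00), Mrps14 (0.61) and Mrpl22 (0.44). The 3 lower ones were Mrps15 (-0.84, edgeR adjusted p with offset 0.076), Mrpl52 (-0.79) and Mrpl37 (-0.41). Mrpl52 and Mrpl37 had been above 0 without the offset, at 0.55 and 0.38, and in Mrpl37 all Bahd1-KO libraries had been above all Bahd1-WT libraries. Mrps26 had the highest value at 1.12 and missed the threshold (edgeR adjusted p with offset 0.10). Mrpl14 came to 0.27, Mrpl38 to 0.37 and Mrps11 to 0.51, while Mrpl54 (-0.16), Mrps34 (-0.08), Mrps18a (-0.16), Mrpl23 (-0.33), Mrpl2 (-0.10) and Mrpl28 (-0.06) also changed sign. With the offset and without Bahd1-KO replicate 2, Mrps26 was at 0.53, Mrps16 at 0.63, Mrpl12 at 0.51, Mrps14 at 0.51, Mrpl22 at 0.38, Mrps15 at -0.72, Mrpl52 at -0.80, Mrpl37 at -0.34, Mrpl14 at 0.16, Mrpl38 at 0.38 and Mrps11 at 0.35, and the median of the group was 0.06. With the offset 19 genes had all Bahd1-KO values above all Bahd1-WT values and 6 below, against 10.9% and 14% of all genes.

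Exon overlaps with other genes were common in the group. Of the 78 genes 8 shared exon sequence with another gene on the same strand and 28 with one on the other strand. The study names a stranded kit and a strand setting for the counting, but its methods differ between sources and the setting behind the deposited counts is not certain, so that both kinds may bear on them. Over the 45 genes tested without any such overlap the median log2 fold change was 0.13 (0.04 without Bahd1-KO replicate 2), and 11 were higher at an adjusted p under 0.1, against 14.7% of all genes tested.

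The start regions of the genes were compared with those of all genes, since factors such as NRF1, members of the ETS family and YY1 are known regulators of nuclear genes for mitochondrial proteins. RefSeq promoters (GRCm38.p6, 250 bases before to 50 after the start) matched 69 of the 78 genes. On either strand, the NRF1 motif GCATGCGC was found in 8 of the 69 (11.6%) and in 3.05% of the promoters of 27025 genes. The ETS motif CCGGAAG was found in 26 (37.7%) against 9.93%, and the YY1 motif AAGATGGCG in 8 (11.6%) against 1.64%. At least one of them was found in 36 (52.2%) against 13.6%, and in the 250 bases before the start alone in 26 (37.7%) against 10.5%. The ETS motif ends with the letters AAG that open the YY1 motif, so that both can share them, and a match is a description of these bases. These shares hold for the promoters of the table used. The genes without an entry were Mrpl13, Mrpl15, Mrpl19, Mrpl38, Mrpl4, Mrpl54, Mrps28, Mrps34 and Mrps35. Of the promoters with the ETS motif and no annotated exon in the 250 bases 2 are given as examples, with the motif in capitals.
Mrps22, chr9:98601680-98601929, minus strand: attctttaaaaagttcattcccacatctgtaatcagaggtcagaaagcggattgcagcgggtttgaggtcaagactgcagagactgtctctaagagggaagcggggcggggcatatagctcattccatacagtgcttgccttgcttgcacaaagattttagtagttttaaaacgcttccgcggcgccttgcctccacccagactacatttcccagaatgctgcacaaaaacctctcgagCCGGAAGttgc
Mrpl58, chr11:115403502-115403751, plus strand: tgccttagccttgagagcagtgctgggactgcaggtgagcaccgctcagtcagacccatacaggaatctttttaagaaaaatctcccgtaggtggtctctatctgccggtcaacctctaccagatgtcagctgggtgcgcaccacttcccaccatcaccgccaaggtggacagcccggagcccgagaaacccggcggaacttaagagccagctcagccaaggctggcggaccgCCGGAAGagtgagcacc
The difference between genes with and without a motif was not tested. The median log2 fold change was 0.06 in the 8 genes tested with the NRF1 motif and 0.18 in the 60 without. It was 0.32 with and 0.08 without the ETS motif (25 and 43 genes), and 0.32 with and 0.12 without the YY1 motif (8 and 60 genes). Without Bahd1-KO replicate 2 the medians were 0.06 and 0.05 for NRF1, 0.15 and 0.04 for ETS and 0.16 and 0.04 for YY1. Mrps22 and Mrpl58, shown above, were at -0.31 and 0.17. For the GC content of the promoter rho was 0.29 over 68 genes. The value of 0.80 for that of the transcript was over 77 genes, which include Mrpl4, Mrpl38, Mrps34 and Mrpl54 without a promoter entry. The 2 values are thus not over the same genes.

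Other genes of mitochondrial translation were read from lists, for which the same counts and medians are given, to be read against 14.7% of all genes tested that were higher and 4.77% that were lower at an adjusted p under 0.1. Of 6 genes listed as mitoribosome proteins under other symbols 3 were higher at an adjusted p under 0.1, and the median log2 fold change was 0.49. One of the 3 was Oxa1l (0.93, edgeR adjusted p = 0.063), which encodes an insertase of the inner membrane and not a ribosomal protein. The median of the list lies between Oxa1l and Dap3 (0.05), and so depends on it. The highest was Gadd45gip1 with 7.81, 4.58 and 7.29 CPM in Bahd1-WT and 10.5, 41.8 and 13.3 CPM in Bahd1-KO (1.74, edgeR adjusted p = 0.069), and the lowest Ptcd3 (-0.54, edgeR adjusted p = 0.10). Of 25 genes for assembly and rRNA modification 5 were higher and 0 lower, with a median of 0.18. They ran from Gtpbp10 (-0.62), a GTPase, to Mpv17l2 (1.92, edgeR adjusted p = 0.063). Of 12 translation factors 2 were higher and 2 lower, with a median of -0.15. The elongation factor Tufm stood at 1.13 (edgeR adjusted p = 0.063) and Guf1, the counterpart of bacterial LepA, at -0.77 (edgeR adjusted p = 0.071). Of 16 mitochondrial aminoacyl-tRNA synthetases 4 were higher and 0 lower, with a median of 0.33, from Rars2 (-0.42) to Aars2 (2.33). Of 19 genes for mitochondrial transcription and RNA processing 5 were higher and 1 lower, with a median of -0.17. The mitochondrial RNA polymerase Polrmt was at 2.36 (edgeR adjusted p = 0.063) and the polynucleotide phosphorylase Pnpt1 at -0.68 (edgeR adjusted p = 0.083).

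Without Bahd1-KO replicate 2 the highest genes of these 5 lists came to 0.86 (Gadd45gip1), 1.4 (Mpv17l2), 0.79 (Tufm), 1.49 (Aars2) and 1.43 (Polrmt), and the medians of the lists, in the order given, to 0.34, 0.14, -0.15, 0.13 and -0.11. The GC content of the highest genes was 54.9% in Gadd45gip1, 61.0% in Mpv17l2, 56.1% in Tufm, 60.0% in Aars2 and 60.9% in Polrmt. That of the lowest was 43.0% in Ptcd3, 39.5% in Gtpbp10, 42.4% in Guf1, 44.1% in Rars2 and 40.6% in Pnpt1. With the offset Gadd45gip1 was at 0.96, Aars2 at 0.83, Polrmt at 0.76, Mpv17l2 at 0.33 and Tufm at 0.21. The lowest genes came to -0.14 (Ptcd3), -0.05 (Gtpbp10), -0.33 (Guf1), -0.11 (Rars2) and -0.17 (Pnpt1) with the offset, and to -0.40, -0.50, -0.59, -0.31 and -0.51 in the same order without Bahd1-KO replicate 2. With the offset the medians of these 5 lists lay between -0.13 and 0.13.

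The rRNAs of the mitoribosome and the mRNAs that it translates, all encoded by mitochondrial DNA, had log2 fold changes below 0. The rRNAs mt-Rnr1 and mt-Rnr2, of the small and large subunit, had log2 fold changes of -0.60 and -0.62 (edgeR adjusted p = 0.12 and 0.13). For both, all 3 Bahd1-KO libraries were below all Bahd1-WT libraries. These RNAs were read from a library made for polyadenylated RNA. Of the 13 mitochondrial mRNAs 8 were tested, and 7 were lower at an adjusted p under 0.1, with a median of -0.75. The cytochrome oxidase subunit mt-Co1 had the lowest value among those with high counts (-0.79, edgeR adjusted p = 0.063). A seventh, mt-Co2, had 121 reads in Bahd1-WT replicate 1 and at most 2 in any other library, and 5 further ones had too few reads to be tested, so that their levels were not read. The medians without Bahd1-KO replicate 2 were -0.46 for the rRNAs and -0.59 for the mRNAs. With the offset they were -0.02 for the rRNAs and -0.11 for the mRNAs. The median GC content was 35.6% in the rRNAs and 37.4% in the mRNAs tested, against 49.2% over all genes tested.

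**Figure D5:**
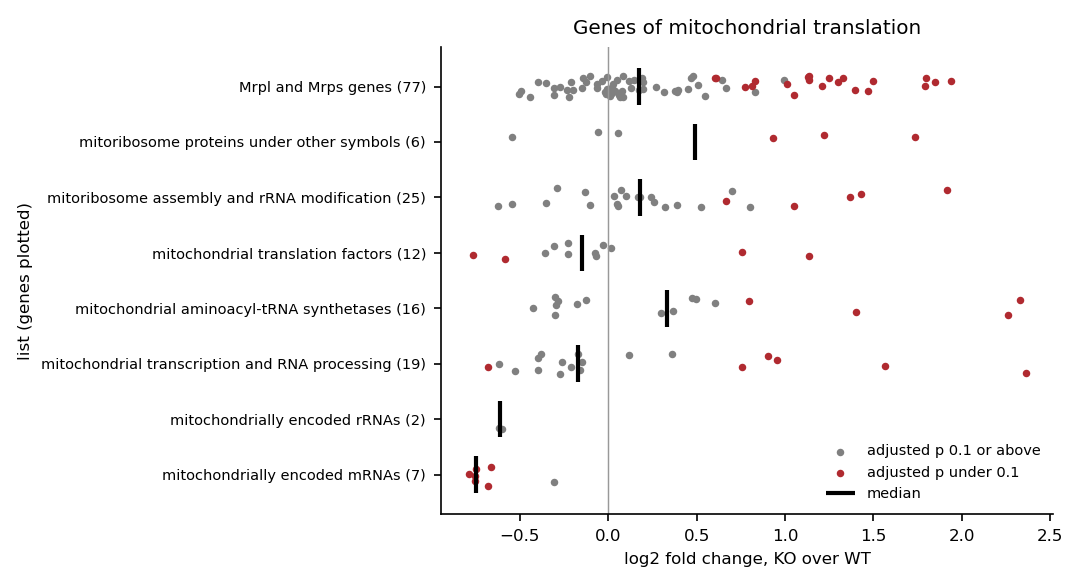
Log2 fold change of Bahd1-KO over Bahd1-WT for each gene tested in 8 lists, with a bar at the median of each list and red points at an edgeR adjusted p under 0.1. mt-Co2 is left out of the plot because of its low counts. Oxa1l, an insertase, is plotted with the mitoribosome proteins under other symbols. The lists of nuclear genes spread over both sides of 0, and the mitochondrial RNAs lie below 0.

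Set beside 2 groups of genes taken by symbol alone, the mitochondrial ribosomal protein genes had the lowest median. The first group, meant for cytosolic ribosomal proteins, took symbols with Rpl or Rps and a digit. That rule also lets in other genes, such as kinases named after a ribosomal protein, and these were not taken out. The median log2 fold change was 0.61 over the 93 genes of this group tested, with 40 higher and 1 lower at an adjusted p under 0.1. It was 0.48 over 75 nuclear genes of the respiratory chain, with 31 higher and 2 lower. When Bahd1-KO replicate 2 was left out, the medians were 0.38 and 0.25 in these groups and 0.06 in the mitochondrial ribosomal protein genes. With the offset they were 0.19, 0.21 and 0.09. The median GC content was 51.5% in the Rpl and Rps genes, 51.6% in the respiratory chain genes and 50.1% in the mitochondrial ribosomal protein genes. Differences between these groups were not tested.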

How the data were processed

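RNA-seq was made from one hemisphere of each of 3 Bahd1-WT and 3 Bahd1-KO adult mice, and samples were grouped by their titles. Per the study's methods each library was run more than once, and the table has 1 column per mouse, so that p-values measure the spread between these animals. The authors deposited raw counts per gene as whole numbers for 53801 genes, without normalisation. The submitters' processing notes name cutadapt 1.11, STAR 2.5.0a and featureCounts 1.4.6-p3 on GRCm38. The sources differ on the aligner and on single-end or paired-end reads. The table had 0 further sample columns.

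Genes with a count sum of at least 10 were tested (23975) with edgeR 4.0.16 in R 4.3.3: TMM factors, quasi-likelihood fit and test, genotype as the only factor, Benjamini-Hochberg adjustment over all of them. A call needed an adjusted p under 0.05 and at least a 2-fold change, the thresholds of the study. A looser count used 0.1. DESeq2 1.42.0 was an alternative. Standard errors come from the quasi-likelihood fit. CPM use TMM-normalised library sizes. Levels per kb and GC content use the principal transcript in GENCODE M21. For the offset, log2 CPM of each library were fitted by natural splines on GC content (5 degrees of freedom) and log length (3). Depth was 42297150 to 93557948 counts, where 3 counts are 0.0315 to 0.0690 CPM. Such limits cover counting error only. The fits were checked on simulated counts with known changes.

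The members, their classes and the lists were chosen with earlier results of these data known. Genes were named as the 2 highest and 2 lowest fold changes of each class, the 4 highest and 2 lowest levels per length, 14 genes picked for their role, and the ends of each list. Of the lists, Ict1 (a member here under Mrpl58) and Mars2 were not found by symbol. Alternatives were other scalings, filters, tests, the offset, the replicate block, omission of each sample and a shorter promoter window. After the data were seen, edgeR with legacy=FALSE and DESeq2 without Bahd1-KO replicate 2 were added.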

Additional observations from a re-analysis of the deposited data

How the results depend on the processing

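With 3 samples per genotype, single libraries set the calls. The number of genes called at an adjusted p under 0.05 and 2-fold was 0 in the edgeR fit and 12 with total counts alone (8.37% of all genes called), 16 without a filter on low counts (8.45%), 16 in DESeq2 without the prior (11.5%), 15 with the prior (10.5%) and 4 with the prior when Bahd1-KO replicate 2 was left out (3.27%), a choice made after the data were seen. Leaving out each library in turn gave 0 to 18, with 18 without Bahd1-KO replicate 1. The 21 genes higher at an adjusted p under 0.1 became 4 with the GC and length offset, 0 with the replicate block and 0 with both, fits in which 9 and 10 of all 23975 genes passed in either direction, and 0 to 29 when one library was left out, with 0 without Bahd1-WT replicate 1, 2 or 3 or without Bahd1-KO replicate 3, 13 without Bahd1-KO replicate 2 and 29 without Bahd1-KO replicate 1. The count lower at that level was 3 with the offset and 0 to 8 when one library was left out, with 8 without Bahd1-KO replicate 1. The 32 genes without overlap became 32 to 50, both directions together, when one library was left out, with 50 (64.9%) without Bahd1-KO replicate 1, where 61.8% of all genes did not overlap, against 39.8% with all libraries. The median of the small subunit genes was -0.063 with upper-quartile factors. The median of all members stayed above 0 under each alternative, from 0.02 to 0.26. The replicate numbers of the labels belong to different animals, and the deviations of same-numbered libraries correlated at -0.60, -0.63 and -0.13, so that the block has no pairing behind it. Under the offset and under the offset with the replicate block, the Spearman correlation with GC content was -0.23 and -0.22, and the medians were 0.13 and 0.12 for the list of mitoribosome proteins under other symbols, which holds Oxa1l, 0.016 and 0.016 for assembly, -0.0033 and -0.00086 for synthetases, 0.049 and 0.049 for transcription and RNA processing, -0.019 and -0.019 for rRNAs and -0.11 and -0.14 for mitochondrial mRNAs. Under the same pair of fits Mrpl54 turned to -0.16 and -0.16, Mrps34 to -0.082 and -0.088, Mrps18a to -0.16 and -0.16 and Mrpl23 to -0.33 and -0.34. The offset removes the trend with GC content and length by construction over the expressed genes it was fitted on. Among the 77 genes rho with length was 0.34 with the offset and -0.49 without it. The cause of the trend was not tested. In the 250 bases before the start alone, 26.1% of member promoters held the ETS motif, 2.90% the YY1 motif and 37.7% any motif. Of 600 values of single named genes under the alternatives, 489 kept direction and side of the 0.1 threshold, 7 that had not passed it changed sign with a shift smaller than their standard error, 81 lost the threshold, 9 gained it, 8 turned from passing it to the other sign, and 6 that had not passed it changed sign with a shift larger than their standard error.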
